A study of Mus musculus with 12 samples.

Results

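Splicing factors and RNA-binding proteins were examined in mouse testis on 12 two-colour cDNA arrays. The genes were chosen by their platform symbol alone: those starting with Hnrnp, Snrp, Srsf, Sf3, Prpf, Lsm and a digit, Rbm, Pabp, Cpsf, Cstf, Celf or Ybx. The rule found 100 of the 9930 genes named on the array, carried by 154 probes. A test needed values on 3 or more of the 4 arrays in each comparison, which 95 of them had. Lsm2, Celf6, Rbm12b1, Cstf1 and Cpsf6 had values on 4 to 8 of the 12 arrays and were not tested.

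All animals were males on a Castaneus background, and every channel held testis RNA pooled from 3 of them. One group was wildtype, the second Wobbler (wr/wr in the design text) and the third Wobbler modifier (wr/mod in the design text). Wobbler is a recessive mutation of Vps54, a gene of retrograde vesicle traffic to the Golgi, and is known for motor neuron loss and for sperm without an acrosome. The labels do not give the nature of the modifier or the age of the animals. Each pair of groups was hybridised on 4 arrays, with the first-named genotype in Cy5 on replicates 1 and 2 and in Cy3 on replicates 3 and 4. The channel labels disagree with the labelling protocol, which speaks of a reference pool from 6 control animals. Nothing says that the arrays of a comparison came from separate pools. Spread between arrays, on which the p-values rest, may thus be technical.

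Splicing joins exons in a large complex, the spliceosome, built from small nuclear RNAs and their proteins. Snrp and Lsm proteins form the rings around these RNAs, Sf3 proteins bind the branch site, and Prpf proteins help the complex to assemble and change shape. SR proteins (Srsf) and hnRNP proteins act on splice site choice, often in opposite directions. Cpsf and Cstf proteins belong to the complexes that cut the transcript at its 3′ end, and Pabp proteins bind the poly(A) tail that is then added. Testis is known for extensive alternative splicing, for early polyadenylation sites, and for transcripts stored until spermatids need them.

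All values are log2 ratios of the first-named genotype over the second, so that 1 is a doubling. Which sign means higher is only likely: it rests on the array titles and the usual order of the dyes, since the deposited values do not state it. Reading them as Cy5 over Cy3, the late spermatid markers were below 0 in both dye orientations for 13 of 13 genes in both modifier comparisons. The fit of each direct ratio to the ratio through the third genotype did not settle the reading for Wobbler over wildtype or modifier over wildtype. The correlation across 14729 features was -0.010 as Cy5 over Cy3 and 0.023 as channel 1 over channel 2 for Wobbler over wildtype. In the same order it was 0.119 and 0.140 for modifier over wildtype, with rank correlations of 0.135 and 0.090. For modifier over Wobbler it was 0.126 and 0.006. Arrays of the same comparison agreed little. Over all features their correlations were -0.04 to 0.13 in Wobbler over wildtype, 0.06 to 0.18 in modifier over wildtype and 0.01 to 0.13 in modifier over Wobbler. The spread of the arrays differed: replicate 2 of Wobbler over wildtype had an SD of 1.61 over its spots, against 0.62 to 0.99 on the other 11. On that array 17 of the tested members lay above 2, against 0 to 2 on each other array. Of all its usable spots 13.9% lay above 2, against 1.71% on replicate 1 of the same comparison. For Wobbler over wildtype, most fitted ratios, medians and counts are given also without replicate 2 where that turned a sign or moved the value by over 1.5 times.

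The promoter of Hnrnpa2b1 is shown because this gene was the only member past the threshold, and that of Prpf19 as 1 of the 3 members above 0 on all 8 modifier arrays. Both come from RefSeq on build GRCm38.p6 and are written 5′ to 3′ on the gene's strand, with every CpG in capitals. They end just before the most 5′ start of the gene in the gene table. The first covers 96 bases at chr6:51470049-51470144 on the minus strand and holds 14 CpG. These bases lie in a gap of 105 bases between Hnrnpa2b1 and its neighbour Cbx3, which has no probe on the array. The second covers 250 bases at chr19:10894981-10895230 on the plus strand and holds 13 CpG.
Hnrnpa2b1: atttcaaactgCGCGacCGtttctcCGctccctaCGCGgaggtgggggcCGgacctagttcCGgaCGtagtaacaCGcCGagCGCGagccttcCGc
Prpf19: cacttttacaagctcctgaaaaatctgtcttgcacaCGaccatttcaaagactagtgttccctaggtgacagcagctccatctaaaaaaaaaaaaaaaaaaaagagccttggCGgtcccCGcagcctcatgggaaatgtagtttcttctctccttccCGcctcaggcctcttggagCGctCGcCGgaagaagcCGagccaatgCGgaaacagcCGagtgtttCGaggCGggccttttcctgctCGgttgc

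The members' promoters differed in CpG content. A window of 300 bases (250 before and 50 after the start) was on hand for 83 of the 100 members, and its median CpG count was 24. The median over the 8005 genes with a probe was 19. The full window of Hnrnpa2b1 held 34 CpG and that of Prpf19 held 16, below both medians. For Hnrnpa2b1 the window is set on a start downstream of the one at which its printed sequence ends. On either strand, CCAAT stood in 48.2% of the members' windows against 38.7% of the windows of genes with a probe. GGGCGG stood in 61.4% against 60.4%, and TATAAA in 13.3% against 8.16%. GGGCGG itself holds a CpG, none of the 3 motifs is part of another, and a match describes only the letters of the window.

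In Wobbler over wildtype, Hnrnpa2b1 rose and no other member passed the test, which makes 1 of 95 members beside 0.306% of all features (45 of 14729). It encodes hnRNP A2/B1, an abundant nuclear protein that binds pre-mRNA and represses nearby splice sites. The log2 ratio was 0.74, 0.68, 0.62 and 0.52 on the 4 arrays. All 4 were above 0 and close together, in both dye orientations, and replicate 2 did not stand apart for this gene. The fitted ratio was 0.64 ± 0.10 (SE of the fit, n = 4 arrays), which is 1.56-fold, with a limma adjusted p of 0.0367. Without replicate 2 it was 0.69, with a limma adjusted p of 0.0662. The SE and both p-values rest on the residual spread of all arrays in the fit, not of this comparison alone.

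The call for Hnrnpa2b1 was narrow and depended on the shared fit. With Wobbler over wildtype fitted alone, its limma adjusted p was 0.804, and 0 of 14729 features passed. The median SD between arrays over all features was 0.49 in this comparison. It was 0.30 when the modifier was set against wildtype and 0.40 against Wobbler. The call was also lost when any 1 of the 12 arrays was left out. The fitted ratio was then 0.58 to 0.69, with a limma adjusted p of 0.0551 to 0.165. Arrays of the other comparisons could not change the ratio. In the shared fit 0.122% of all features passed as higher and 0.183% as lower. Leaving out replicate 2 took the features that passed from 45 to 29, with 9 higher and 20 lower. Read as channel 1 over channel 2, the ratio of Hnrnpa2b1 was 0.07.

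In both modifier comparisons Hnrnpa2b1 lay near 0. Against wildtype it was -0.03, 0.13, -0.50 and -0.28, with a fitted ratio of -0.17. Against Wobbler it was 0.29, 0.27, -0.29 and -0.12, with a fitted ratio of 0.04. These arrays lay on both sides of 0 within each comparison. The ratio of Wobbler over wildtype taken through the modifier was -0.21, which is 0.85 below the direct one and opposite in sign. The limma p of that difference, adjusted over all features, was 0.371. With 2 genotype coefficients for the loop, which join both routes, the ratio was 0.36 with a limma adjusted p of 0.466. Over all members, the direct and indirect ratios differed for 0 after adjustment, against 0.0272% of all features. An unadjusted p under 0.05 in limma was reached by 9 members, Hnrnpa2b1 among them, beside 6.95% of all features. The 2 routes thus disagreed for the only called member before adjustment.

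**Figure D1:**
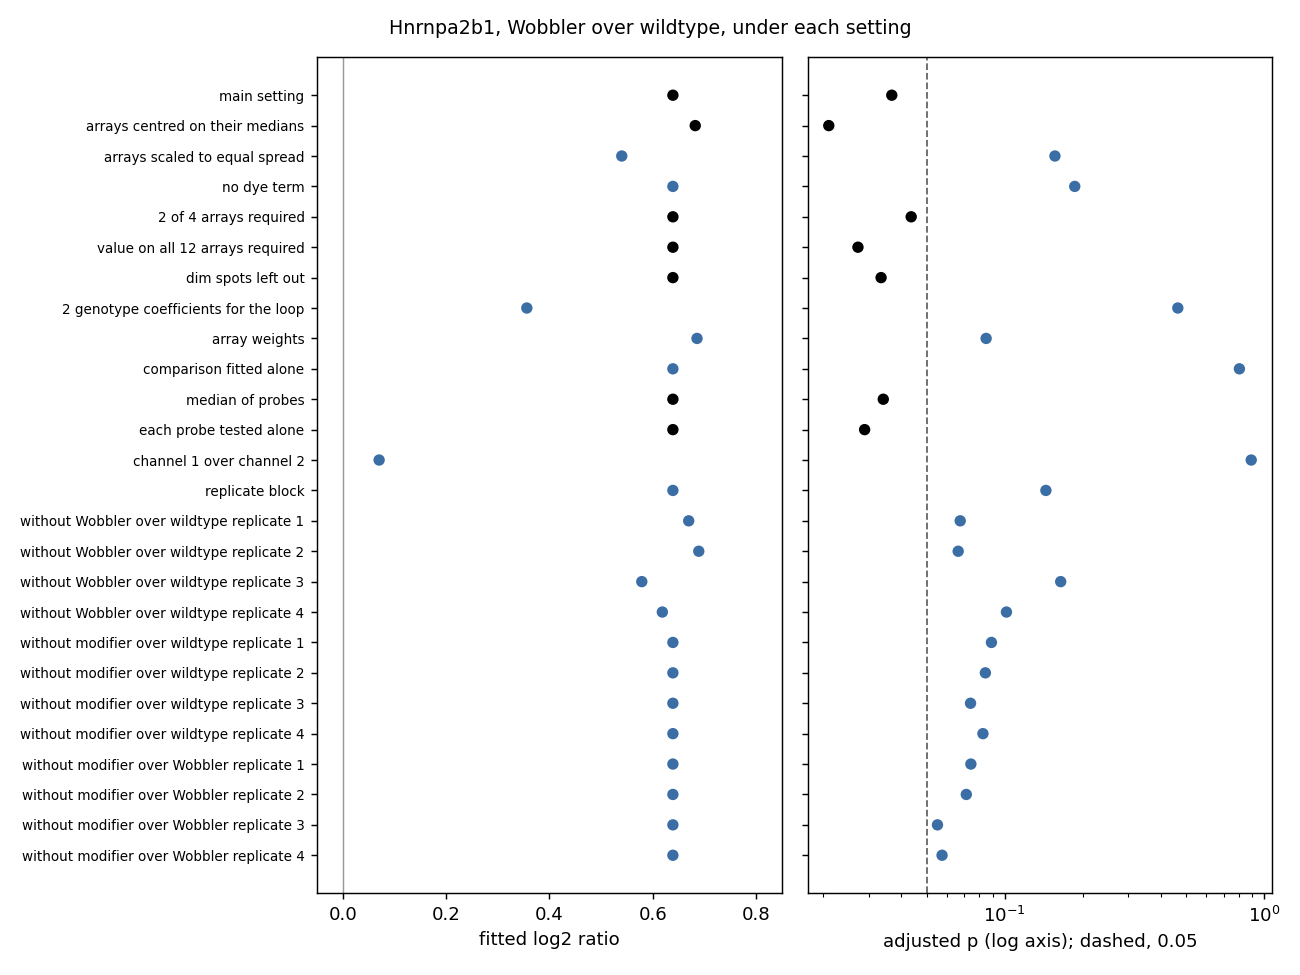
Fitted log2 ratio of Hnrnpa2b1 in Wobbler over wildtype (left) and its limma adjusted p on a log axis (right) under each setting; black points lie under an adjusted p of 0.05. Many settings, such as leaving out an array of another comparison, cannot change the ratio of 0.64. With centring, scaling, array weights or an array of this comparison left out, it lies between 0.54 and 0.69. It is 0.36 with 2 genotype coefficients for the loop and 0.07 as channel 1 over channel 2. The adjusted p lies above the dashed line in most settings.

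As a group, the members were split evenly in Wobbler over wildtype. The fitted ratio was above 0 for 50 and below 0 for 45 of the 95 members, with a median of 0.01, beside -0.01 over all features. An unadjusted p under 0.05 was reached by 11 members with a higher and 7 with a lower ratio. Over all features these shares were 7.22% and 8.47%. The same sign on all 4 arrays was seen for 8 members above 0 and 7 below, where 6.58% and 11.0% of all features did so. The sign was the same in both dye orientations for 48 members, beside 46.7% of all features. Without replicate 2, the unadjusted counts were 7 and 6, of which 4 and 4 were members of the counts before, and the fitted ratio turned its sign in 16 of the 95 members. The split was then 44 above and 51 below 0, with a median of -0.02.

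Poly(A)-binding proteins had ratios above 0 in Wobbler over wildtype in all 3 tested members, and none passed the adjusted threshold. Pabpc1, the main cytoplasmic poly(A)-binding protein, was 1.12, 0.72, 0.38 and 0.36 on the 4 arrays. It was highest on the 2 arrays with Wobbler RNA in Cy5. The fitted ratio was 0.65 ± 0.12 (SE, n = 4), with a limma adjusted p of 0.0829. Pabpc2, a testis-enriched relative, was 0.88 and 0.94 in one dye orientation and -0.21 and -0.13 in the other. Pabpc1 and Pabpc2 are close in sequence, so that a cDNA probe may bind transcripts of both.

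Pabpn1, which binds the growing tail in the nucleus, was 0.08, 3.60, 1.05 and 0.58 in Wobbler over wildtype. Its fitted ratio of 1.33 was the highest of all members and was 0.59 without replicate 2. When the modifier was set against Wobbler it was -1.21, -0.63, -3.03 and -1.31, below 0 on all 4 arrays. The fitted ratio there was -1.54 ± 0.51 (SE, n = 4), the lowest of all members, with a limma adjusted p of 0.284.

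The 3 probes of Pabpc1 did not give the same value. In Wobbler over wildtype their fitted ratios were 0.61, 0.98 and 0.35. The second of them, at 1.45, 0.74, 0.83 and 0.90, was above 0 in both orientations and passed when each probe was tested alone (limma adjusted p = 0.00932). The other 2 were near 0 on replicates 3 and 4. The 3 probes were alike in modifier over Wobbler, at 0.38, 0.37 and 0.37, and their mean had a limma adjusted p of 0.295.

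**Figure D2:**
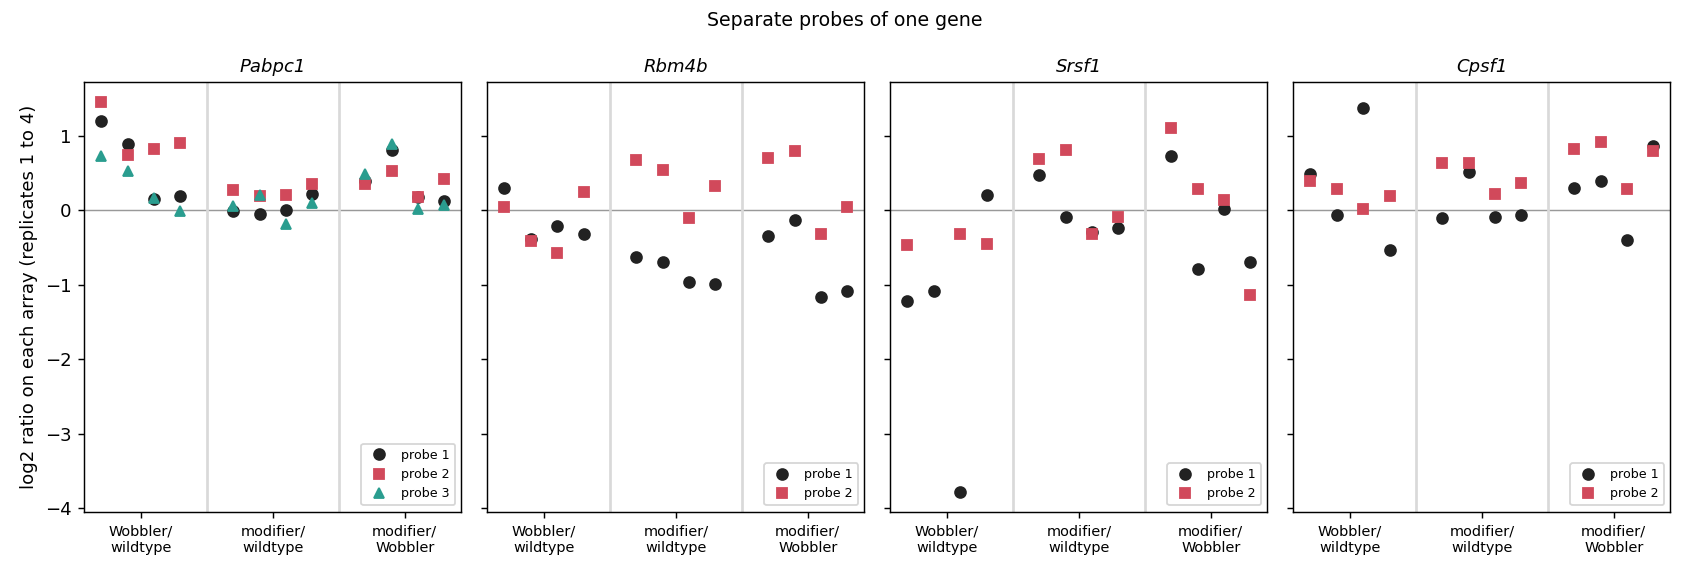
Log2 ratio of each probe of Pabpc1, Rbm4b, Srsf1 and Cpsf1 on each array, with replicates 1 to 4 from left to right within each comparison. One probe of Rbm4b lies below 0 on all 8 modifier arrays while the other lies above 0 on most of them.

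SR and hnRNP proteins lay on both sides of 0 in Wobbler over wildtype. Srsf1, an SR protein that promotes exon inclusion, was -0.84, -1.08, -2.05 and -0.13, with a fitted ratio of -1.03 ± 0.30 (SE, n = 4) and a limma adjusted p of 0.178. Hnrnpl, a regulator that binds CA-rich RNA, was -0.93, -1.24, -1.97 and -0.18, with a fitted ratio of -1.08, the lowest of all members in this comparison. Both were below 0 on all 4 arrays and nearest to 0 on replicate 4. One probe of Srsf1 stood at -3.78 on replicate 3, and the other probe lay between -0.46 and -0.32 on its 3 arrays. Hnrnpa1, a close relative of Hnrnpa2b1, was 0.74, 2.64, 0.21 and -0.25, with a fitted ratio of 0.83 that was 0.33 without replicate 2.

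Other members with known germ cell roles did not pass the test. Hnrnpk was 0.91, -0.13, 0.16 and -0.02, with a fitted ratio of 0.23. This was 0.08 without replicate 1 and 0.47 without replicate 2 (limma adjusted p = 0.326). Srsf10, an SR protein that represses splicing when dephosphorylated, had a fitted ratio of -0.09, and of -0.30 without replicate 2. Of the 9 SR proteins tested, 6 were below 0 with a family median of -0.14, and of the 14 hnRNP proteins 8 were above 0 with a median of 0.15. Without replicate 2 the hnRNP median was 0.07.

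Among the core snRNP rings, Lsm3, a subunit of both the U6 ring and the decapping ring, was 0.38, 0.50, 0.49 and 0.10 in Wobbler over wildtype. All 4 arrays and both of its probes were above 0, and its fitted ratio was 0.37 ± 0.11 (SE, n = 4; limma adjusted p = 0.178). Lsm14a, a protein of cytoplasmic P-bodies, was -0.23, -0.36, -0.54 and -0.44, with a fitted ratio of -0.39 and a limma adjusted p of 0.174. Lsm8, another U6 ring subunit, was -0.45 and Lsm1, of the decapping ring, was -0.28. Neither passed after adjustment, so members of these rings lay on both sides of 0. Snrpd1, of the Sm ring, had a fitted ratio of -1.01 that was -0.41 without replicate 2, where it stood at -3.02.

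Sf3 proteins of the U2 snRNP were above 0 for 5 of 6 members in Wobbler over wildtype, with a median of 0.53. Without replicate 2 this was 4 of 6, with a median of 0.25. Sf3b5 was 0.57, 3.01, 0.45 and -0.07 and Sf3a1 was -0.39, 3.84, -0.77 and 0.38. Both were highest on replicate 2, and the fitted ratio of Sf3a1 went from 0.76 to -0.21 without it. In modifier over wildtype all 6 Sf3 members were above 0, between 0.04 and 0.27, and none passed the test. The highest, Sf3a3, averages 2 probes that disagree. One had values on 2 of the 4 arrays alone, both in 1 dye orientation, at 2.64 and 2.86, and the other was 0.21, 0.14, -1.47 and -0.36.

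The Rbm family is the largest, with 24 tested members of mixed function, and it was split 12 to 12 in Wobbler over wildtype. Rbm6, a regulator of alternative splicing, was -0.57, -0.21, -0.32 and -0.67 in Wobbler over wildtype, with a fitted ratio of -0.44 ± 0.11 (SE, n = 4; limma adjusted p = 0.131). In modifier over wildtype it was 0.41, 0.53, 0.10 and 0.05, above 0 on all 4 arrays, with a limma adjusted p of 0.590. One probe of Rbm6 gave -0.77 and the other -0.12 in Wobbler over wildtype, or -0.71 and -0.27 without replicate 2.

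Rbm5 and Rbm44 are known from the germ line, the first for splicing in round spermatids and the second for the bridges between germ cells. Rbm5 was -0.05, -0.57, 0.78 and -0.93 in Wobbler over wildtype and Rbm44 was 3.15, -1.60, 0.34 and 0.11. Both genes had values of either sign in this comparison. The fitted ratio of Rbm5 was -0.20, or 0.13 without replicate 2, and that of Rbm44 was 0.50, or 1.40 without it. Rbm44 was above 0 on all 4 arrays of modifier over wildtype, at 0.02, 0.79, 0.35 and 0.10, with a fitted ratio of 0.31.

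Cleavage factors were above 0 in Wobbler over wildtype for 4 of 5 Cpsf and 2 of 3 Cstf members, with medians of 0.15 and 0.42, and none passed the test. Without replicate 2 the Cpsf count was 3 of 5. Cstf3 was 0.43, 2.37, 0.88 and 0.12, with a fitted ratio of 0.95 that was 0.62 without replicate 2. Cstf2t, the retrogene copy of Cstf2 that serves meiotic and later germ cells, was 0.50, 0.67, 0.14 and 0.36. It was above 0 on all 4 arrays, with a fitted ratio of 0.42 ± 0.29 (SE, n = 4; limma adjusted p = 0.486). Cstf2 itself had values on 9 of 12 arrays that ran from -5.82 to 2.19 and gave no usable direction.

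Celf and Ybx were the smallest groups. Celf2 and Celf4, which regulate splicing by binding GU-rich RNA, had fitted ratios of -0.28 and 0.32 in Wobbler over wildtype. Without replicate 2, where Celf4 stood at 1.90, they were -0.05 and -0.18. Ybx1, a cold shock protein that packages mRNA, was 0.74, 0.15, -0.08 and 0.12, with a fitted ratio of 0.23. The germ cell members Ybx2, Ybx3, Rbmxl2, Rbmy, Rbm46, Pabpc6 and Celf1 were not analysed here.

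**Figure D3:**
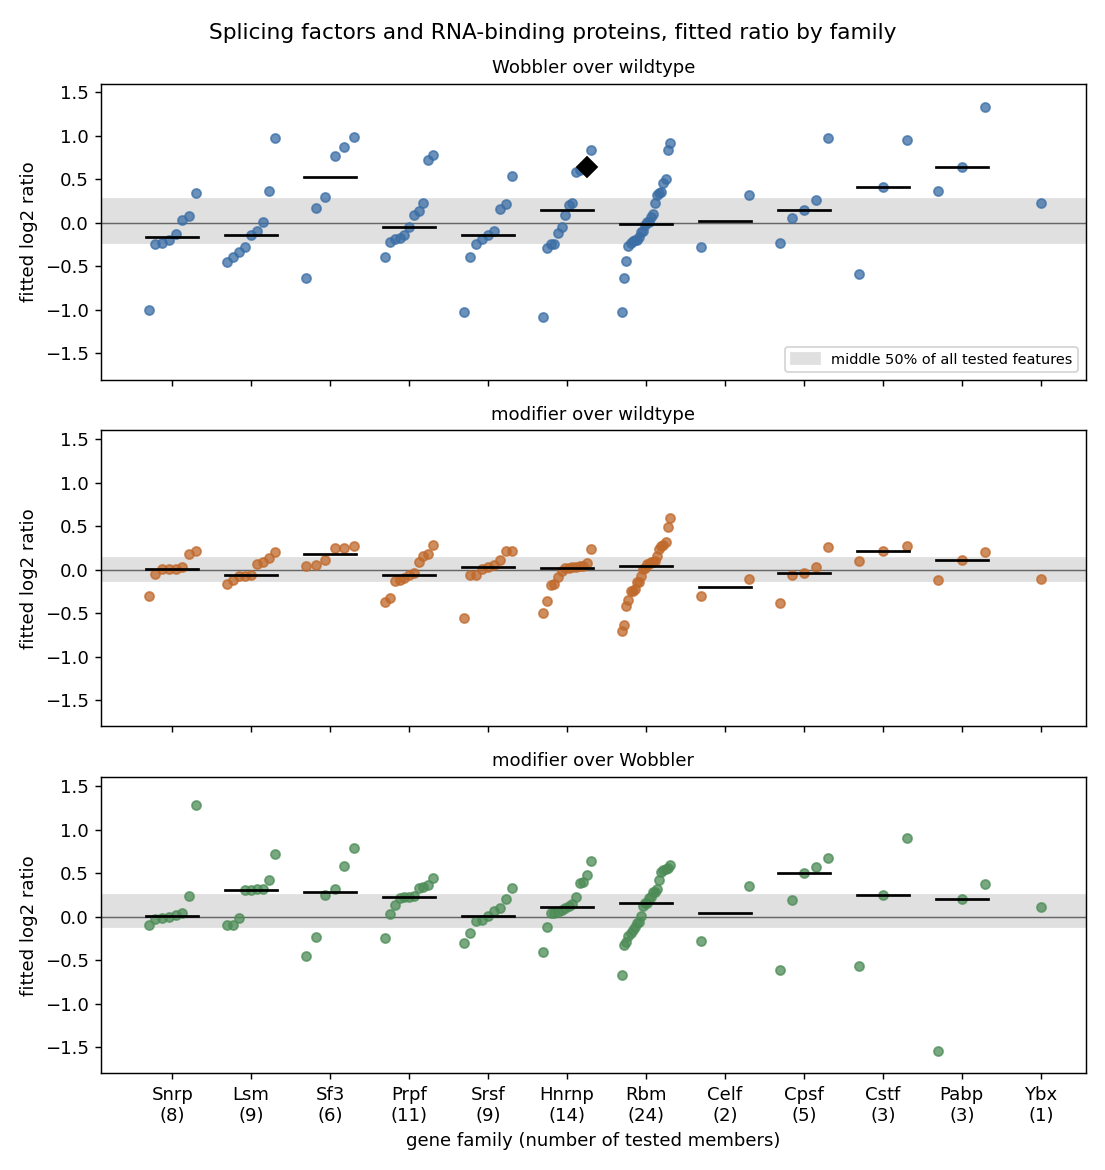
Fitted log2 ratio of each of the 95 tested members, by family, in the 3 comparisons; short bars are family medians, the grey band holds the middle 50% of all tested features, and the black diamond is Hnrnpa2b1. The points lie closest to 0 in modifier over wildtype, where 91 of 95 are within 0.5.

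In modifier over wildtype no member passed the adjusted threshold in limma, and 5 had an unadjusted p under 0.05. Of all features 108, or 0.733%, passed, of which 5, or 0.0339%, were higher and 103, or 0.699%, lower. The members' median was 0.02 and that of all features 0.01, with 55 members above 0 and 40 below. The unadjusted share over all features was 7.33%, with 2.11% higher and 5.22% lower, beside 2 and 3 members. The fitted ratios ran from -0.71 for Rbm12 to 0.60 for Rbm14. The same sign on all 4 arrays was seen for 12 members above 0 and 7 below, where 8.81% and 10.4% of all features did so. In both dye orientations 34 members kept 1 sign, beside 43.3% of all features.

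Late spermatid markers were measured beside these ratios. All 13 tested markers were below 0 in modifier over wildtype and 7 of them fell, with a median over the markers of -0.88 to -1.16 on the 4 arrays. Against Wobbler all 13 were again below 0, 5 fell, and the array medians lay between -0.79 and -0.53. Between Wobbler and wildtype 0 passed in limma, 1 had a higher and 1 a lower unadjusted p under 0.05, and the median was 0.04. Without replicate 2 the unadjusted counts were 0 and 1, and the median was -0.06. Leydig cell markers were below 0 for 8 of 8 genes in both modifier comparisons, where 2 and 1 of them passed. Cyp17a1, a steroid enzyme of Leydig cells, fell by 2.03 in modifier over wildtype. Of the 4 meiotic markers tested there, 3 were below 0 and 1 above, and 1, Syce2, fell. Of the 5 macrophage markers 4 were below 0 and 1 above, and 1, Tyrobp, fell. No marker of spermatogonia, Sertoli cells, vessels or blood passed in limma in that comparison, and 3, all of Sertoli cells, had an unadjusted p under 0.05. In whole testis, fewer cells of a type and less RNA per cell cannot be told apart, and the part of these markers in the members' ratios was not tested.

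Srsf11, an SR-related protein, had the smallest p of the members in modifier over wildtype. It was -0.79, -0.53, -0.60 and -0.28, below 0 on all 4 arrays, with a fitted ratio of -0.55 ± 0.19 (SE, n = 4) and a limma adjusted p of 0.412. Against Wobbler it was -0.39, -0.31, 0.32 and -0.84, which includes both signs. Prpf38a, needed to activate the spliceosome, was -0.31, -0.25, -0.53 and -0.40 in modifier over wildtype, with a fitted ratio of -0.37 (limma adjusted p = 0.560). Rbm28, a nucleolar protein, had a fitted ratio of -0.25 and Rbmx2 one of -0.64, the latter with a range of -1.74 to 0.06.

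Prpf19, the ubiquitin ligase of a complex that activates the spliceosome, was above 0 on all 8 modifier arrays. It was 0.35, 0.32, 0.12 and 0.34 against wildtype, with a fitted ratio of 0.28 ± 0.11 (SE, n = 4; limma adjusted p = 0.537). Against Wobbler it was 0.25, 0.57, 0.42 and 0.21, with a fitted ratio of 0.36 ± 0.11 and a limma adjusted p of 0.239. With array weights, which count noisy arrays less, Prpf19 rose in modifier over wildtype (0.29, limma adjusted p = 0.0394) and Srsf11 fell (-0.55, limma adjusted p = 0.0322). These are 2 of 95 members, beside 4.81% of all features under the same setting. Pabpc1 and Lsm4 were also above 0 on all 8 modifier arrays. Of all features 2.28% were, beside 3 of 95 members. Below 0 on all 8 were 0 members and 2.75% of all features.

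The higher ratios in modifier over wildtype were small. Rbm14, a coactivator found in paraspeckles, was 0.14, 0.58, 0.93 and 0.75, with a fitted ratio of 0.60 and a limma adjusted p of 0.770. Srsf6, an SR protein, was 0.26, 0.33, 0.17 and 0.13. All arrays of both genes were above 0, and the fitted ratio of Srsf6 was 0.22 ± 0.11 (SE, n = 4; limma adjusted p = 0.818).

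**Figure D4:**
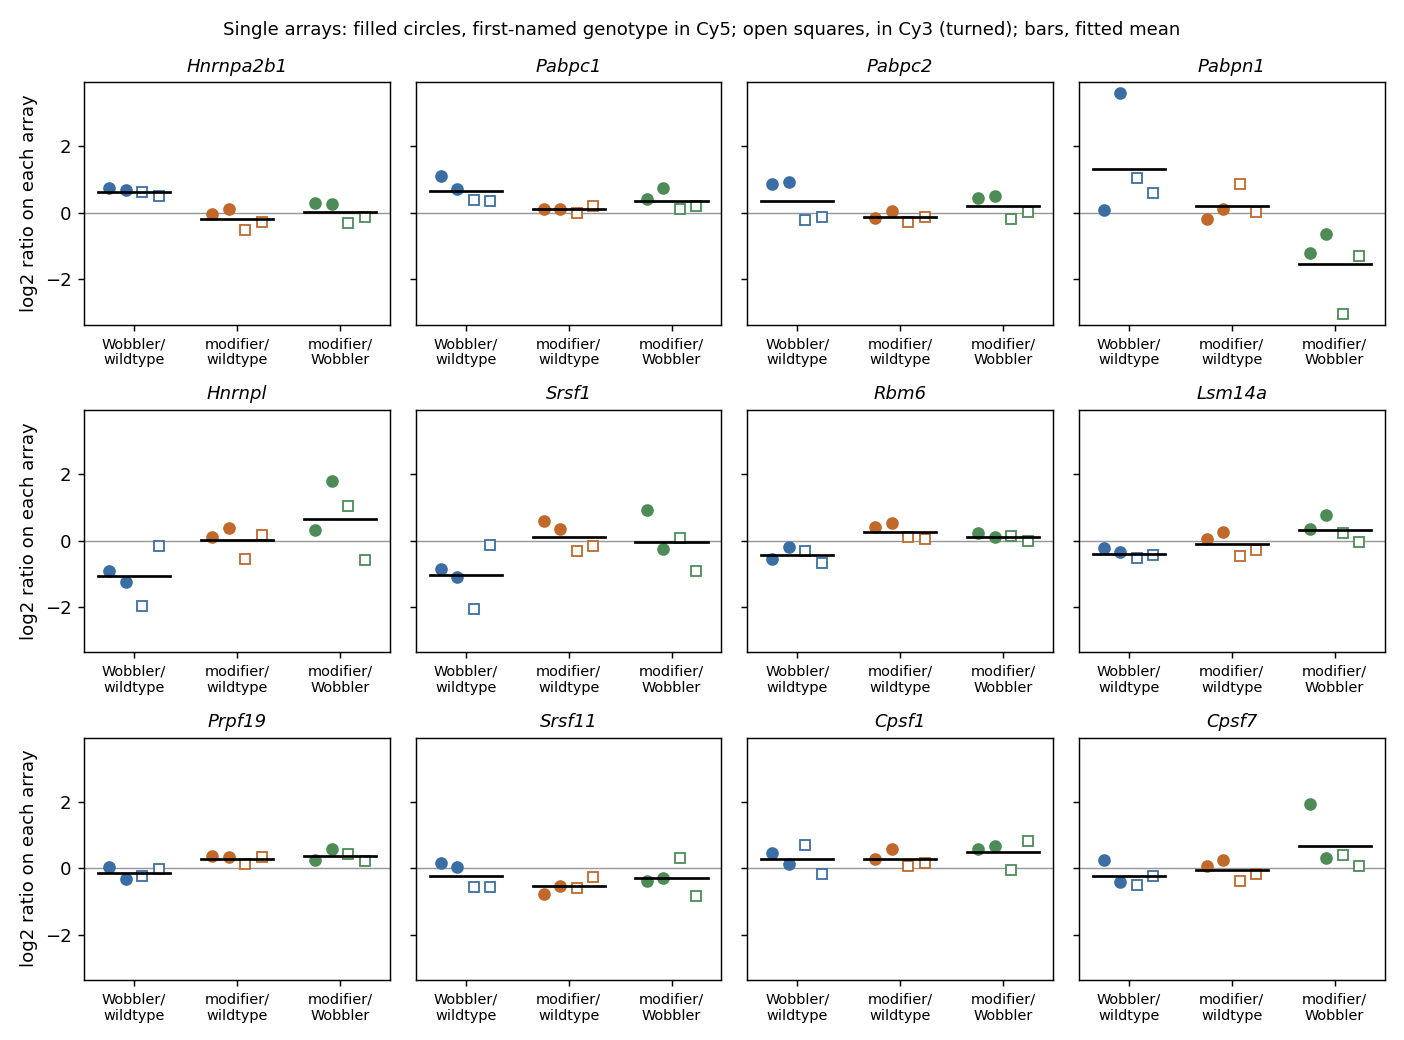
Log2 ratio of 12 members on every array; filled circles have the first-named genotype in Cy5, open squares have it in Cy3 after turning, and bars are fitted means. Hnrnpa2b1 lies between 0.52 and 0.74 on the Wobbler over wildtype arrays, while Pabpc2 changes sign with the dye.

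In modifier over Wobbler no member passed the adjusted threshold in limma either, and 12 had an unadjusted p under 0.05, of which 11 were higher. Of all features 61, or 0.414%, passed, and 44 of them were lower. The unadjusted shares over all features were 7.03% higher and 4.47% lower. The members' ratio was above 0 for 66 and below 0 for 29, with a median of 0.16 beside 0.08 over all features. Of all features 61.6% were above 0. With each array centred on its median, 57 members were above 0 and 38 below, with a median of 0.10 beside 0.02 over all features. With 2 genotype coefficients for the loop the median was 0.08 beside 0.05. The same sign on all 4 arrays was seen for 17 members above 0 and 4 below, where 11.0% and 6.80% of all features did so. In both dye orientations 57 members kept 1 sign, beside 49.7% of all features.

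Of the larger families, those most often above 0 in modifier over Wobbler were Prpf, with 10 of 11 members and a median of 0.23, and Hnrnp, with 12 of 14 and a median of 0.11. The Cpsf proteins had the highest family median, 0.50. Cpsf1, the subunit that anchors the cleavage complex, was 0.56, 0.65, -0.06 and 0.83, with a fitted ratio of 0.50 ± 0.17 (SE, n = 4; limma adjusted p = 0.316). One of its 2 probes was 0.82, 0.92, 0.28 and 0.80 and passed when tested alone (fitted ratio 0.70, limma adjusted p = 0.0242), while the other had a fitted ratio of 0.29.

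Cpsf7, part of the factor that selects poly(A) sites, was 1.93, 0.31, 0.40 and 0.05 in modifier over Wobbler. Its fitted ratio was 0.67, and 0.30 without replicate 1. Cstf3 was 2.06, 2.13, -0.23 and -0.34, so its sign followed the dye. Snrpd1 had the highest fitted ratio, 1.28, from 0.63, 0.63, -0.07 and 3.92, and it was 0.44 without replicate 4. Rbm19 was 0.06, -0.78 and -1.13 on the 3 arrays where it was measured, with a fitted ratio of -0.67.

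The 2 probes of Rbm4b, a splicing regulator, pointed in opposite directions. In modifier over wildtype the first was -0.63, -0.69, -0.96 and -0.98, and it passed when each probe was tested alone (fitted ratio -0.81, limma adjusted p = 0.0289). The second was 0.67, 0.55, -0.10 and 0.33, with a fitted ratio of 0.36. Against Wobbler the first probe had a fitted ratio of -0.69 and the second 0.31. The mean of the gene did not pass in either comparison. Which transcript each probe reads was not tested.

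Probe disagreement was common. Of the 33 members with several tested probes, 11 had probes on both sides of 0 in Wobbler over wildtype, and 15 and 14 had them when the modifier was set against wildtype and against Wobbler. In Wobbler over wildtype the widest gaps were -0.46 to 1.14 for Snrpb and -0.32 to 1.21 for Hnrnpc. Without replicate 2 the 2 probes of Snrpb were -0.35 and -0.22, the widest gap of Hnrnpc was -0.33 to 0.29, and 17 of the 33 members had probes on both sides of 0. The fitted dye term was above 0 for 84 of 95 members, with a median of 0.14, beside 0.15 and 81.1% above 0 over all features. It passed for 0 members, beside 0.00679% of all features.

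The remaining genes of these pathways were read from 6 lists of 193 genes outside the families, of which 128 were tested. None passed in any comparison in limma. An unadjusted p under 0.05 was reached by 15 with a higher and 11 with a lower ratio in Wobbler over wildtype, by 3 and 8 when the modifier was set against wildtype, and by 10 and 5 against Wobbler. Of the 128 genes these are 11.7% and 8.59%, 2.34% and 6.25%, and 7.81% and 3.91%, beside 7.22% and 8.47%, 2.11% and 5.22%, and 7.03% and 4.47% of all features. Without replicate 2 the counts in Wobbler over wildtype were 10 and 12. Among 41 other spliceosome proteins, 7 had a higher and 3 a lower unadjusted p under 0.05 in Wobbler over wildtype, and the median was 0.20. Without replicate 2 these were 4 and 3, with a median of 0.03. Ddx5, an RNA helicase, had the smallest p, with a fitted ratio of 0.50 ± 0.11 (SE, n = 4; limma adjusted p = 0.121). Wbp11, a spliceosome protein, was 0.66, 0.72, 0.43 and 0.73 in modifier over Wobbler, with a limma adjusted p of 0.0666.

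Of 36 other splicing regulators, Rbfox2 was -0.53, -0.70, -1.34 and -0.32 in Wobbler over wildtype, all 4 below 0 (limma adjusted p = 0.121). Among 9 other 3′ end processing proteins, the scaffold Sympk was 1.07, 1.24, 0.02 and 0.53 there (limma adjusted p = 0.0908). Papolb, the testis poly(A) polymerase, was below 0 on all 8 modifier arrays, with fitted ratios of -0.47 and -0.36. Of 14 snRNP assembly proteins, 11 were below 0 in Wobbler over wildtype and 3 above, or 6 above without replicate 2, with Snupn, the importer of capped snRNAs, at -0.48. The 11 exon junction and export proteins included Casc3 at -0.41 in that comparison.

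Of 17 germ cell RNA-binding proteins outside the families, 4 had a lower unadjusted p under 0.05 in modifier over wildtype, and Adad1 led them at -0.44 (limma adjusted p = 0.0829). Meioc, needed for meiotic prophase, was -0.47 in Wobbler over wildtype. Ddx4, a germ cell helicase that also stands in the spermatogonia list, was 0.57, 0.59, 0.49 and 0.29 there, with a limma adjusted p of 0.129.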

How the data were processed

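For each spot of the 12 two-colour arrays the authors deposited a log2 ratio. How the arrays were scanned, background-corrected and normalized was not given in the sources used here. One repeated value per array, between 15.5 and 16.503 on 22 to 165 spots, was taken as a placeholder and set missing. Ratios of dye-exchanged arrays were multiplied by -1. Of 20355 probes, 14030 had 1 gene symbol, 5 several and 6320 none; probes of a gene were averaged per array, and other probes stayed features. All 100 member symbols matched a gene table of GRCm38.p6. Usable spots numbered 18325 to 19584 per array. The number of arrays and their low agreement limit the precision.

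Of 16255 features, 14729 entered 1 limma 3.58.1 fit (lmFit and eBayes, R 4.3.3) over all 12 arrays, with a dye term beside the mean of each comparison and Benjamini-Hochberg adjustment over all features (threshold 0.05, two-sided). The SE comes from this shared fit. The fit was tested on simulated data with the same spread on all arrays of a feature. That test could not examine the unequal spread of the real arrays. Members and lists were chosen with earlier results of these data known. Named genes were those past the threshold, the 4 with the smallest p in each direction and comparison, the 1 with the smallest p per family, and members with a known germ cell role; others named were chosen after their values were seen. Alternatives changed centring, scaling, dye term, filters, dim spots, model, weights, probes, direction, block and the set of arrays. Leaving out replicate 2 of Wobbler over wildtype for lists and single probes was added after seeing the data.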

Additional observations from a re-analysis of the deposited data

Results flagged for a closer look

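Among 87 sets of 4 arrays examined for the named members, 4 held 1 array far from the other 3, where chance gives about 1 in 20. Lsm3 was 0.39 on replicate 1 of modifier over wildtype, and the next value was 0.07. Prpf19 was 0.12 on replicate 3 of the same comparison, and the others lay between 0.32 and 0.35. In Wobbler over wildtype, Snrpd1 was -3.02 on replicate 2, and the next value was -0.47. Srsf10 was 0.56 on that array, and the others lay between -0.34 and -0.25.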

How the results depend on the processing

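In Wobbler over wildtype the count of members called went from 1 to 0 with arrays scaled to equal spread, without the dye term, with 2 genotype coefficients for the loop, with array weights, with the comparison fitted alone, as channel 1 over channel 2 and with the replicate block, and to 2 (Hnrnpa2b1 and Pabpc1) with each probe tested alone. The count of all features went from 45 to 24 with scaling, 24 without the dye term, 22 with array weights, 87 per probe, 22 with the replicate block, and 0 with the loop coefficients, fitted alone and as channel 1 over channel 2; the members' median was 0.16 in that last reading. In modifier over wildtype the members called went from 0 to 2 (Prpf19 and Srsf11) with array weights and 1 (Rbm4b) per probe, and all features from 108 to 438 with scaling, 46 without the dye term, 224 with the loop coefficients, 709 with array weights, 4 fitted alone, 58 with the replicate block and 0 as channel 1 over channel 2. In modifier over Wobbler the members called went from 0 to 1 (Cpsf1) per probe, and all features from 61 to 101 centred, 7 without the dye term, 207 with the loop coefficients, 108 per probe, 24 with the replicate block, and 0 fitted alone and as channel 1 over channel 2. With each probe tested alone, a gene was counted by its probe with the smallest p, which favours genes with several probes. The cause of these changes was not tested.

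Leaving out 1 array gave 18 to 54, 20 to 154 and 0 to 128 features in the 3 comparisons and 0 members in each; the members' median ran from -0.02 to 0.05, -0.03 to 0.06 and 0.09 to 0.20. Arrays with the same replicate number correlated at -0.03 to 0.07 in their deviations, none of 12 pairs over 0.1. Arrays of the same comparison themselves correlated at only -0.04 to 0.18 over all features. These values therefore cannot tell whether equal numbers shared pools. Hnrnpa2b1 in Wobbler over wildtype was the only called value among the named members, and it kept its sign. Under the alternatives 19 values were weaker, all of them this one, and its call was lost in each. Of the values that were not called, 4 were stronger and 32 moved. The other 1362 kept their call or stayed within the array spread. A turned sign within that spread counts as kept, and many settings cannot change a ratio. Intensities were not used here, so signal over background is known only from whole-number ratios of dim spots, on 3.49% of the members' spots against 4.19% of all.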
